A study of Homo sapiens with 8 samples.

Results

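The genes described here encode heat shock proteins, chaperonins and the proteins that work directly with them, in SKBR3, an established human breast cancer cell line with ERBB2 amplification. They were taken from the count table by symbol: the HSPA, HSPB, HSPD, HSPE, HSPH, HSP90A, CCT, DNAJA, DNAJB and DNAJC names, plus HSF1, HSF2, TCP1, BAG1, BAG2 and BAG3. HSPA4, HSPA5, HSPA9, DNAJB9, DNAJB11, DNAJC3 and HSPBAP1 were left out by rule. Of 102 rows with such a symbol, 17 pseudogenes and these 7 genes were removed, which left 78 genes of the 30434 in the table. Messenger RNA was sequenced from 4 control libraries, whose genotype is given as WT, and 4 FOXA1 knockdown libraries. FOXA1 is a forkhead transcription factor of luminal breast cells. The knockdown cells were a stable line made with lentiviruses carrying 3 individual shRNAs against FOXA1. Both groups grew in the same serum-containing medium without a stated heat or drug treatment. The labels do not say whether the controls carried a control vector, whether the line is a clone or a pool, or whether replicates came from separate cultures, so p-values measure only the spread between these samples.

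Heat shock proteins are molecular chaperones, which bind unfolded or newly made proteins and keep them from aggregating. Small HSPs hold unfolded proteins without using ATP, HSP70 proteins bind and release them in an ATP cycle that J-domain (DNAJ) proteins start and nucleotide exchange factors reset, and HSP90 proteins and the chaperonin rings fold later intermediates. Heat shock factors, HSF1 above all, switch on many of these genes when unfolded proteins accumulate, and cancer cells often hold high levels of several of them.

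Library totals were 21838121 to 23786684 counts in controls and 19087878 to 23503753 counts in knockdown, and 3 counts corresponded to 0.123 to 0.153 counts per 1000000 (CPM, with library totals scaled by TMM). FOXA1 itself had 4180, 4239, 4071 and 4397 counts in controls and 89, 87, 83 and 92 in knockdown libraries, 2.06% of the control CPM. The summed CPM of the luminal markers was 18290 to 20372 in controls and 11485 to 12376 in knockdown, with 3 of 6 lower and 3 higher. Summed fibroblast markers were at 5.27 to 6.98 CPM in controls and 10.8 to 11.9 CPM in knockdown, leukocyte markers at 0.665 to 0.863 and 0.648 to 0.983 CPM, and endothelial markers at 20.7 to 22.1 and 19.7 to 22.4 CPM. The fibroblast markers did not rise together. COL3A1 rose from 0.022 to 4.32 CPM and PDGFRB from 0.41 to 2.83 CPM, while COL1A1 fell from 5.38 to 4.33 CPM (group means). COL1A2 and DCN had at most 3 counts in any library. Every gene in the count table had at least 2 counts in total, so a marker at 0 in all libraries could not be in it. LUM, a fibroblast marker, and CD3E, a leukocyte marker, were listed but absent from it. The part of other cells in the results was not tested. In bulk RNA, fewer cells of a type and less RNA per cell cannot be told apart.

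The heat shock and chaperonin genes did not move as a block. Of the 72 that passed the filter on low counts, 32 were higher in knockdown, 27 were lower and 13 were not called (edgeR's quasi-likelihood test, Benjamini-Hochberg adjusted p under 0.05 over all genes). The same test called 77.1% of all 16430 genes tested, 39.4% higher and 37.7% lower, beside 81.9% of these genes. The median log2 fold change, knockdown minus control, was 0.02 over the 72 genes and 0.02 over all genes tested. CPM did not overlap between the groups for 57 of the 72 genes (79.2%), against 72% of all genes tested. For such a gene the exact two-sided permutation test gives p = 0.0286, the smallest that 4 against 4 libraries allow. At least 2-fold, 15 genes were lower (20.8%, against 13.4% of all genes tested) and 8 were higher (11.1%, against 14.9%). The 6 genes not tested, HSPB2, HSPB3, HSPB6, HSPB9, DNAJB7 and DNAJC5B, had at most 9 counts in any library.

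**Figure D1:**
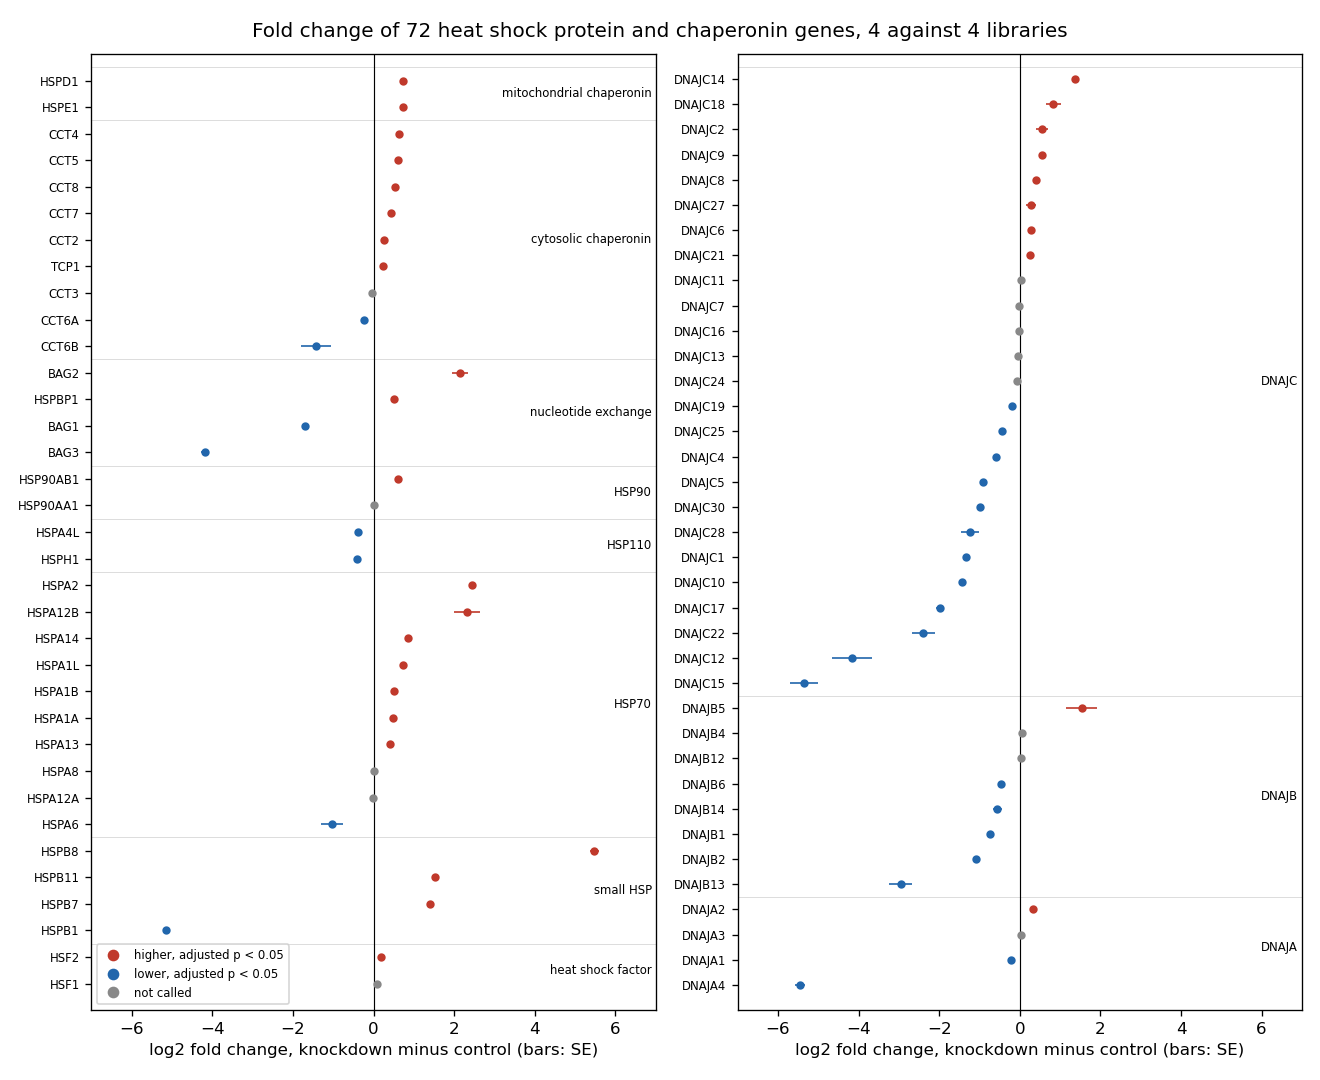
Log2 fold change (knockdown minus control) of each tested gene by family, with bars showing its SE over 4 libraries a group. HSPB1, DNAJA4, DNAJC15, BAG3 and DNAJC12 lie at -4 or below and HSPB8 lies above 4, while most subunits of the chaperonins lie between 0 and 1.

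The changes were widest among the genes for small HSPs, J-domain proteins and exchange factors, and narrow among the abundant folding machines. At -4 or below on the log2 scale stood 5 genes, namely DNAJA4, DNAJC15, HSPB1, BAG3 and DNAJC12, and at 4 or above stood HSPB8. Of all genes tested, 2.44% lay at -4 or below, and their share at 4 or above was not counted. Another 13 of the 72 lay within 0.1 of 0, as did 11.3% of all genes tested. Summed over all 78 genes the level was 15905 ± 169 CPM in controls and 16960 ± 276 CPM in knockdown (SD, n = 4 each), a far smaller change than the 44.7-fold rise of HSPB8.

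Promoters are shown because genes of this group are known targets of heat shock factors, and some of the genes that moved most can be set beside abundant ones that moved less. The 250 bases before each start were read from RefSeq (GRCh38.p14), which matched 68 of the 78 genes, HSPB11, HSPA14, HSF1, HSPB2, DNAJC5B, DNAJC1, HSPA12B, CCT6A, DNAJC22 and DNAJC24 being without an entry. Each line gives the plus or minus strand of the gene 5′ to 3′, ending at the base before the start, with the heat shock element cores GAANNTTC and TTCNNGAA in capitals. Each core is its own reverse complement, and neighbouring cores may overlap. For a gene with several starts the window holding the cores is shown.
HSPB1: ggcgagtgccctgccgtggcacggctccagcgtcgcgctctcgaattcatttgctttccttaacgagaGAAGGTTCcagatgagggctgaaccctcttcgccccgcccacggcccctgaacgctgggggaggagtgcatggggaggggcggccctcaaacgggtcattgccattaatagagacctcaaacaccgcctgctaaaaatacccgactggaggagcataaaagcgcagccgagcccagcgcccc
DNAJA4: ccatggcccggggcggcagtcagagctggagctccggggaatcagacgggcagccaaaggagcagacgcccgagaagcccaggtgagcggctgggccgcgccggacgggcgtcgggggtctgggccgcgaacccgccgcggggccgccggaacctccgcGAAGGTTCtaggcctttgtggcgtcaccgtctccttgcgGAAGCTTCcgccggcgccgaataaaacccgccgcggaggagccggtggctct
HSPB8: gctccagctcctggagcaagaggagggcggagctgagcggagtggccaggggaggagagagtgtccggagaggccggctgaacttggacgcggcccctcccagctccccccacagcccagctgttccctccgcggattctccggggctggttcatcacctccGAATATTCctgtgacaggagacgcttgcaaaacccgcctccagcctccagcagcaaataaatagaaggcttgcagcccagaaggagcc
HSP90AB1: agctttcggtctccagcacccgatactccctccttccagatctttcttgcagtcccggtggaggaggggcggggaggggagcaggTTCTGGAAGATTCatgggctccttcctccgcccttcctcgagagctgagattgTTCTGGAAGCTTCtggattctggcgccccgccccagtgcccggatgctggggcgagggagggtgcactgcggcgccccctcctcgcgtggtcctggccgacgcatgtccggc
HSPA8: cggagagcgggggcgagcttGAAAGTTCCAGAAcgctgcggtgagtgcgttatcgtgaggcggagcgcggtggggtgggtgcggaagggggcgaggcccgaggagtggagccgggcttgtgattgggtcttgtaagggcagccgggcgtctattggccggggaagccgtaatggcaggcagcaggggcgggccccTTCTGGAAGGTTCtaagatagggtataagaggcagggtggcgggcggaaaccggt
HSPD1: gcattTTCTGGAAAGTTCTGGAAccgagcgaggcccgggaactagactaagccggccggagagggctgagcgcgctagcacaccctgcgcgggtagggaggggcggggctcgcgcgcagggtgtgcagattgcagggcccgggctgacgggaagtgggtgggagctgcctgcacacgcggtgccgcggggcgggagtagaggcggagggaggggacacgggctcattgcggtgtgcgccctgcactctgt
These 6 windows lie at chr7:76302423-76302672 (plus strand, HSPB1), chr15:78264312-78264561 (plus strand, DNAJA4), chr12:119178681-119178930 (plus strand, HSPB8), chr6:44247693-44247942 (plus strand, HSP90AB1), chr11:123062137-123062386 (minus strand, HSPA8), chr2:197499841-197500090 (minus strand, HSPD1). Starts are those of RefSeq and can differ from the GENCODE bounds of a gene: for HSPB1 the GENCODE start, chr7:76302544, lies inside the window. The windows of DNAJA4, HSPB8, HSP90AB1, HSPA8 and HSPD1 lie wholly within the GENCODE bounds of their genes. HSPB1 held 1 core, 174 bases before its RefSeq start, and HSPB8 held 1 core, 80 bases before its RefSeq start. The first gene was lower and the second higher in knockdown. DNAJA4 held 2 cores and HSPD1 held 3. HSP90AB1 and HSPA8 held 4 cores each, and only the first was called. The window of BAG3 held neither core. Of the 68 genes, 24 (35.3%) held a core in at least 1 window, against 14.0% of 27305 genes in the RefSeq table. Of these 24 genes, 21 were tested, with 9 higher, 9 lower and 3 not called. This stands beside 39.4% higher and 37.7% lower among all genes tested. An alternating run of 3 units (GAANNTTCNNGAA or TTCNNGAANNTTC) were found for DNAJB6, HSPA6, HSPA8, HSP90AA1, HSP90AB1 and HSPD1, 8.82% of the 68 genes against 0.557% of all, with 2 higher, 2 lower and 2 not called. The forkhead core TGTTTAC, searched on both strands, was in the windows of DNAJC12, DNAJC6 and HSP90AA1, 4.41% against 3.66% of all genes. A match is a description of the letters in the window, not a bound site.

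Of the 4 HSPB genes tested, HSPB1 fell and the other 3 rose, HSPB11 being an HSPB gene by name alone. HSPB1 (HSP27; ENSG00000106211.10, GENCODE 29 on GRCh38, chr7:76302544-76304295, plus strand), an abundant small HSP of luminal breast cells, had 945.9, 908.8, 989.9 and 902.8 CPM in controls and 26.8, 25.6, 24.9 and 28.3 CPM in knockdown. All 4 knockdown libraries were far below all 4 controls, at 2.82% of the control mean. The log2 fold change was -5.15 (SE 0.05, adjusted p = 6.27e-31), and the gene went from rank 103 to rank 6637 by CPM among the genes tested. Of 2263 genes with at least 100 CPM in controls, 33 fell as far or further, HSPB1 included. HSPB8 (HSP22), which works with BAG3 in the removal of misfolded proteins, had 10, 11, 13 and 11 counts in controls and 586, 499, 436 and 519 in knockdown. It rose 44.7-fold, from 0.512 ± 0.072 to 22.9 ± 1.98 CPM (log2 fold change 5.47, SE 0.11, adjusted p = 1.14e-22). HSPB7, a small HSP best known from heart muscle, rose from 13.6 ± 0.72 to 36.0 ± 1.83 CPM (log2 fold change 1.41, SE 0.05, adjusted p = 2.96e-17). HSPB11, which is a subunit of the intraflagellar transport complex, rose from 23.0 ± 2.43 to 66.3 ± 1.38 CPM (log2 fold change 1.52, SE 0.08, adjusted p = 5.36e-18). With HSPB11 left out, a choice made after seeing the data, HSPB1 made up 98.5% ± 0.02 of the summed HSPB CPM in controls and 30.8% ± 0.68 in knockdown, and the sum went from 951.2 ± 40.8 to 85.7 ± 4.54 CPM. With HSPB11 included, its share was 96.1% ± 0.33 and 17.4% ± 0.54, and the sum 974.3 ± 38.4 and 151.9 ± 5.67 CPM.

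**Figure D2:**
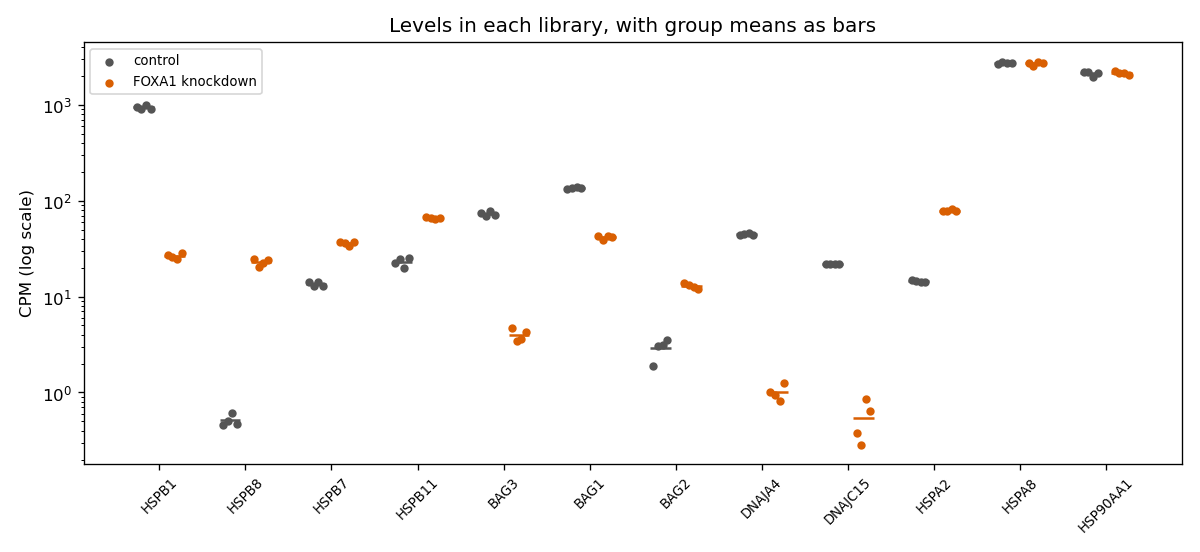
CPM of selected genes in each of the 8 libraries on a log axis, 1 point a library and a short bar at each group mean, controls in grey and knockdown in orange. HSPB1, BAG3, DNAJA4 and DNAJC15 are lower and HSPB8 is higher in every knockdown library, without overlap.

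Among HSP70 genes the most abundant did not differ. HSPA8, the constitutive cytosolic HSP70, had 2633, 2776, 2716 and 2710 CPM in controls and 2739, 2550, 2821 and 2726 CPM in knockdown, overlapping groups with a log2 fold change of 0.00 (SE 0.03, adjusted p = 0.995). HSPA1A and HSPA1B, the stress-inducible pair, rose from 322 ± 19.6 to 451.6 ± 12.1 CPM and from 218.5 ± 7.98 to 309.4 ± 9.24 CPM. Their log2 fold changes were 0.49 (SE 0.05, adjusted p = 2e-11) and 0.50 (SE 0.03, adjusted p = 1.59e-12). Both lost their calls with the median change of the neighbouring genes removed, at 0.06 (adjusted p = 0.169) and 0.07 (adjusted p = 0.0632). Their open reading frames of 1926 bases differ at 4 positions, so reads could be split between them by the counting and neither value stands alone. HSPA1L, the testis-enriched gene beside them, rose from 1.77 ± 0.15 to 2.95 ± 0.15 CPM and lost its call in the same way (adjusted p = 0.0688). HSPA2, known for its role in sperm formation, had 328, 322, 302 and 328 counts in controls and 1824, 1909, 1589 and 1693 in knockdown. It rose 5.42-fold (log2 fold change 2.44, SE 0.02, adjusted p = 5.05e-24) without overlap. HSPA12B, an HSP70 relative known from endothelium, rose from 0.543 ± 0.205 to 2.76 ± 0.37 CPM (log2 fold change 2.33, SE 0.32, adjusted p = 1.07e-09), and its relative HSPA12A stood at 16.9 ± 0.44 and 16.7 ± 0.93 CPM without a call. Of the endothelial markers, VWF fell from 5.22 ± 0.58 to 0.845 ± 0.218 CPM (log2 fold change -2.62, adjusted p = 3.31e-13), CDH5 rose from 16.1 ± 0.29 to 20.1 ± 1.36 CPM (log2 fold change 0.32, adjusted p = 6.28e-05) and PECAM1 had at most 6 counts in any library; their part in the HSPA12B value was not tested. HSPA14, a ribosome-associated HSP70, rose from 28.6 ± 1.89 to 52.1 ± 2.09 CPM, with 17.4% of its exon bases shared with LOC100421372 on the same strand, which was higher too. It was followed by HSPA13, a microsomal HSP70, which rose from 29.9 ± 1.66 to 39.7 ± 3.19 CPM. HSPA6, the strictly stress-inducible HSP70, had 13, 11, 11 and 18 counts in controls and 8, 8, 3 and 7 in knockdown; its adjusted p was 0.00689 with edgeR and 0.0697 with DESeq2, which ends the call.

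The HSP110 genes, whose products act as exchange factors of HSP70, were both called lower. HSPH1 went from 239 ± 16.4 to 179.7 ± 7.97 CPM (log2 fold change -0.41, SE 0.06, adjusted p = 7.93e-08) and HSPA4L from 96.2 ± 7.61 to 73.9 ± 4.34 CPM (log2 fold change -0.38, SE 0.07, adjusted p = 3.78e-06). With the median change of the neighbouring genes removed, as described with the neighbours, HSPH1 turned to 0.16 (adjusted p = 0.00411) and HSPA4L was at -0.12. The other exchange factors went in opposite directions. BAG3, which links HSP70 to selective autophagy and to small HSPs, had 1623, 1527, 1634 and 1658 counts in controls and 110, 85, 71 and 93 in knockdown. It fell 18.2-fold (log2 fold change -4.18, SE 0.11, adjusted p = 2.94e-25). BAG1, which links HSP70 to the proteasome, fell from 135.2 ± 3.11 to 41.4 ± 1.66 CPM, 30.6% of the control level (log2 fold change -1.71, SE 0.03, adjusted p = 2.99e-22). BAG2, an inhibitor of the HSP70-bound ubiquitin ligase CHIP, rose from 41, 68, 66 and 81 counts to 326, 322, 248 and 259 (log2 fold change 2.15, SE 0.20, adjusted p = 1.66e-13). Of its exon bases 42.7% lie opposite RAB23, which was lower in knockdown, and the sources used here do not give the strand setting of the counting. HSPBP1 rose from 58.0 ± 3.67 to 82.2 ± 4.51 CPM (log2 fold change 0.50, SE 0.06, adjusted p = 1.11e-09). BAG3 and HSPB8, whose products form a complex, thus lay toward opposite ends of the range of fold changes.

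Of the HSP90 genes, HSP90AB1 rose and HSP90AA1 was not called. HSP90AB1, the constitutive form, had 1444, 1478, 1444 and 1446 CPM in controls and 2276, 2189, 2170 and 2222 CPM in knockdown, a 1.52-fold rise without overlap (log2 fold change 0.61, SE 0.02, adjusted p = 1.34e-15). HSP90AA1, the inducible form, had 2192, 2199, 1961 and 2154 CPM in controls and 2226, 2142, 2131 and 2032 CPM in knockdown (log2 fold change 0.00, SE 0.05, adjusted p = 0.922). Their CPM ratio, HSP90AB1 over HSP90AA1, was 0.659 to 0.736 in controls and 1.02 to 1.09 in knockdown; it was computed after the values were seen and was not tested.

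The cytosolic chaperonin, a double ring of 8 different subunits that folds actin and tubulin, was higher in sum but unevenly so. The 8 subunit genes summed to 3692 ± 44.0 CPM in controls and 4452 ± 63.8 CPM in knockdown (SD, n = 4 each). CCT4 rose from 275.6 ± 7.91 to 430.2 ± 11.3 CPM (log2 fold change 0.64, SE 0.03, adjusted p = 3.49e-15) and CCT5 from 579.3 ± 10.2 to 883.6 ± 13.8 CPM (0.61, SE 0.02, adjusted p = 1.8e-15). CCT8, CCT7, CCT2 and TCP1 rose by 0.54, 0.44, 0.27 and 0.23 on the log2 scale. CCT3 stayed without a call at 682.0 ± 12.4 and 669.7 ± 15.9 CPM, and CCT6A fell from 674.1 ± 15.2 to 567.5 ± 9.65 CPM (log2 fold change -0.25, SE 0.02, adjusted p = 8.71e-08). Per kilobase of annotated exon, CCT6A and CCT3 were the highest subunits in controls, at 172.8 and 169.7 CPM per kb, and CCT2 the lowest at 73.3. In knockdown CCT3 was at 166.7, CCT4 at 152.0, CCT5 at 151.3 and CCT2 at 88.4 CPM per kb. The highest subunit over the lowest, per kb, was 2.35 to 2.45 in control libraries and 1.85 to 1.91 in knockdown libraries. This ratio was noticed after the values were seen and is given without a test. It depends on dividing by all annotated exon bases, which need not be the length of the expressed transcripts. By CPM alone, the highest and lowest subunits in controls were CCT3 at 682.0 and CCT4 at 275.6. In knockdown they were CCT5 at 883.6 and CCT2 at 382.2 CPM. CCT6B, the testis form of the subunit, fell from 10, 22, 20 and 18 counts to 10, 6, 3 and 7 (adjusted p = 0.000507).

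**Figure D3:**
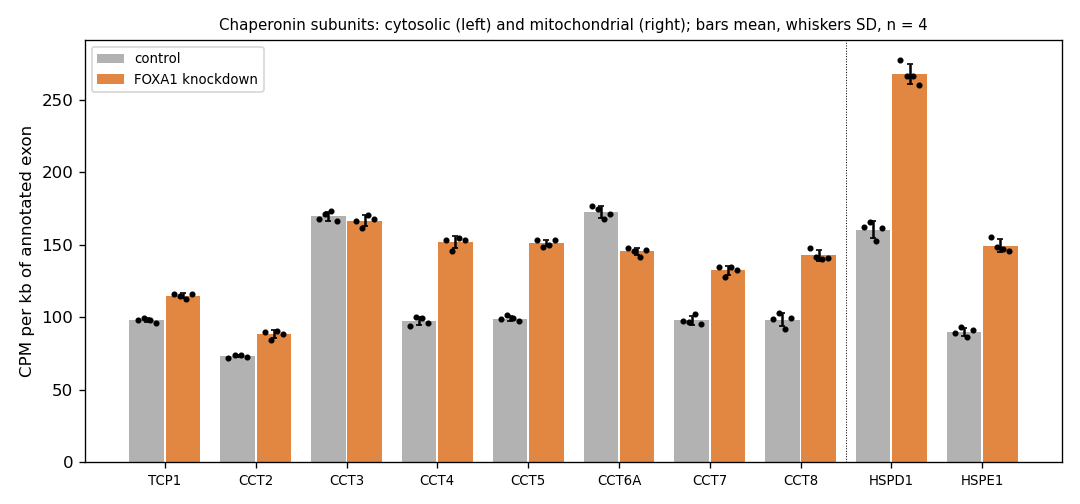
CPM per kb of annotated exon of the 8 cytosolic chaperonin subunit genes (left) and of HSPD1 and HSPE1 (right), with bars for the mean of 4 libraries, whiskers for the SD and 1 point a library. CCT6A and CCT3 lead in controls and do not rise in knockdown, whereas the other 6 cytosolic subunits and the mitochondrial pair do.

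The mitochondrial chaperonin genes rose in step. HSPD1, the HSP60 ring protein, went from 681.8 ± 24.1 to 1137 ± 30.0 CPM (log2 fold change 0.74, SE 0.03, adjusted p = 2.01e-16) and HSPE1, its HSP10 lid, from 177.9 ± 5.64 to 295.3 ± 8.65 CPM (0.73, SE 0.03, adjusted p = 5.28e-16). HSPE1 over HSPD1 was 0.261 ± 0.004 in controls and 0.260 ± 0.002 in knockdown. The genes lie head to head and share 281 exon bases on opposite strands.

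More J-domain genes were lower than higher: of 37 tested, 10 were higher, 19 lower and 8 not called, with a median log2 fold change of -0.19. Of all genes tested, 39.4% were higher and 37.7% lower. DNAJA4, a cytosolic partner of HSP70, had 953, 996, 958 and 1008 counts in controls and 24, 23, 16 and 27 in knockdown, a 44.2-fold fall (log2 fold change -5.45, SE 0.13, adjusted p = 8.12e-26). Its close relatives moved little by comparison: DNAJA1 fell by 0.21 (turning to 0.32 with the neighbours' median change removed) and DNAJA2 rose by 0.33 on the log2 scale, and DNAJA3, the mitochondrial form, was not called at 188.9 ± 4.44 and 192.3 ± 4.09 CPM. DNAJB1 (HSP40), the main stress-inducible J-domain protein, fell from 248.2 ± 8.08 to 149.5 ± 3.77 CPM (log2 fold change -0.73, SE 0.03, adjusted p = 6.14e-16). DNAJB2 and DNAJB6, which keep polyglutamine proteins soluble, fell from 45.9 ± 2.27 to 21.8 ± 1.15 CPM and from 121.0 ± 5.99 to 88.3 ± 1.97 CPM. DNAJB14, a membrane protein of the endoplasmic reticulum, fell by 0.55 on the log2 scale (SE 0.11, adjusted p = 0.000815). DNAJB13, a protein of the sperm tail, had 14, 18, 10 and 15 counts in controls and 3, 2, 1 and 1 in knockdown, at least 4.22-fold lower against 3 counts per library. With it at that bound the median of the DNAJB genes stayed at -0.51. DNAJB5 rose from 9, 3, 5 and 11 counts to 23, 22, 15 and 23 (log2 fold change 1.53, SE 0.39, adjusted p = 0.000104), and DNAJB4 and DNAJB12 were not called.

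The DNAJC genes, a mixed family that shares the J domain alone, held both large falls and rises. DNAJC15, a J-domain protein of the mitochondrial inner membrane, had 482, 476, 460 and 505 counts in controls and 9, 7, 17 and 14 in knockdown. It fell 40.0-fold (log2 fold change -5.35, SE 0.35, adjusted p = 1.25e-21) without overlap. DNAJC10, a disulfide reductase of the endoplasmic reticulum, fell from 150.0 ± 12.1 to 55.1 ± 1.81 CPM (log2 fold change -1.45, SE 0.06, adjusted p = 1.32e-16), and DNAJC1, an endoplasmic reticulum membrane protein, from 52.5 ± 1.87 to 20.9 ± 1.01 CPM. DNAJC5, the cysteine string protein of secretory vesicles, fell from 254.1 ± 10.8 to 135.0 ± 3.22 CPM. DNAJC17 fell by 1.98 on the log2 scale, and 20.4% of its exon bases lie opposite GCHFR and 3.73% opposite C15orf62, which were lower too. DNAJC30 fell by 0.99. Rises were smaller: DNAJC14 went from 49.8, 48.7, 52.4 and 49.2 CPM to 127.1, 127.4, 125.2 and 132.6 CPM (log2 fold change 1.36, SE 0.03, adjusted p = 1.94e-20), but its exons overlap those of 3 genes that were also higher. These are ORMDL2 (21.9% of its exon bases, opposite strand, log2 fold change 0.27), TMEM198B (12.9%, opposite strand, 2.08) and ENSG00000257390 (23.2%, same strand, 2.58). DNAJC18 rose by 0.83 and DNAJC9, a histone chaperone, by 0.55 on the log2 scale, and DNAJC21, a ribosome biogenesis factor, by 0.24. With the neighbours' median change removed, DNAJC18 lost its call and DNAJC21 turned to -0.18. The abundant DNAJC7 and DNAJC11 were not called. Beside 39.4% higher and 37.7% lower of all genes tested, 4 of 13 further tested DNAJC genes were higher, 6 lower and 3 not called. Among these DNAJC12, picked after its values were seen, is a co-chaperone of aromatic amino acid hydroxylases, and had 68, 54, 68 and 85 counts in controls and 5, 3, 6 and 1 in knockdown (log2 fold change -4.17, SE 0.50, adjusted p = 1.13e-12).

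The heat shock factors changed little. HSF1, the main regulator of the heat shock response, was at 73.7 ± 3.89 CPM in controls and 78.4 ± 2.72 CPM in knockdown (log2 fold change 0.09, SE 0.05, adjusted p = 0.0631), with overlapping groups; without control replicate 3 it was called higher (0.12, adjusted p = 0.00745), and so it was without knockdown replicate 3 (0.11, adjusted p = 0.032). HSF2 rose from 17.1, 18.7, 16.3 and 17.7 CPM to 20.4, 18.3, 21.6 and 19.8 CPM (log2 fold change 0.19, SE 0.06, adjusted p = 0.00851), although 1 knockdown library lay within the control range and the exact permutation p was 0.0571. With the neighbours' median change removed HSF2 lost its call and HSF1 turned to -0.12 (adjusted p = 0.0195).

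Neighbouring genes moved with some of these values. The log2 fold changes of the 50 tested genes nearest to each gene on its chromosome, none of them in the group, had a median that ranged from -0.57 to 0.66, and for 16 of 72 genes it lay 0.4 or more from 0. The 11 genes with an absolute fitted log2 fold change of at least 2 kept that size after the neighbours' median was subtracted from the fitted value, which for DNAJB13 depends on the prior count and is no bound, HSPB1 at -4.92, HSPB8 at 5.22, BAG3 at -4.28, DNAJA4 at -5.26 and DNAJC15 at -4.87 among them. Smaller values did not all keep their size. With the regional shift removed, HSPA1A, HSPA1B and HSPA1L lost their calls, as given above, as did HSF2 at 0.01 (adjusted p = 0.923) and DNAJC18 at 0.27 (adjusted p = 0.0885). CCT5 was then at 0.13, TCP1 at 0.10, CCT2 at 0.14, CCT7 at 0.28, HSPA14 at 0.21, HSPBP1 at 0.11 and HSPA4L at -0.12, all still called. HSPH1, DNAJA1 and DNAJC21 turned to 0.16, 0.32 and -0.18. HSPA8 and CCT3, not called before, were at 0.38 and 0.19 and were called. HSP90AB1, CCT4, CCT8, HSPD1 and HSPE1 kept 0.48, 0.55, 0.46, 0.70 and 0.69. Whether DNA copy number differed between the groups was not tested.

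**Figure D4:**
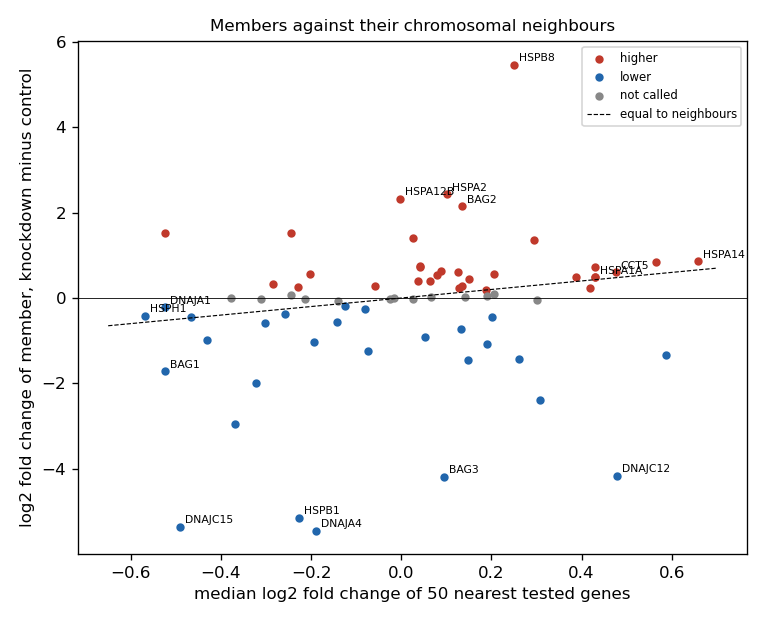
Log2 fold change of each tested gene (vertical) against the median log2 fold change of its 50 nearest tested neighbours (horizontal), 1 point a gene, coloured by its call, with a dashed line where both are equal. The 11 genes beyond 2 in either direction lie far from the neighbours' values, while HSPA1A, CCT5 and HSPA14 lie near them.

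Partner genes outside the group were read from lists of known co-chaperones and folding factors. Of 23 co-chaperones of HSP90 and HSP70, 13 were higher and 7 lower, with a median log2 fold change of 0.15. These counts stand beside 39.4% higher and 37.7% lower among all genes tested, whose median was 0.02. FKBP8, PTGES3 (p23) and NUDC rose by 0.75, 0.51 and 0.46 on the log2 scale, while UNC45A, CDC37L1 and the kinase co-chaperone CDC37 fell by 0.78, 0.78 and 0.57. Of 12 genes listed as prefoldin subunits and chaperonin assistants, 11 were higher and 1 was lower, with a median of 0.29. PDCL3 rose from 27.5 ± 1.25 to 66.8 ± 2.49 CPM, followed by PFDN4 at 0.73 and UXT at 0.63, and TXNDC9 fell by 0.22. Of 14 mitochondrial folding and protease genes, 7 were higher and 5 lower, with a median of 0.06. GRPEL1, GRPEL2 and PAM16, which serve the HSP70 of the mitochondrial matrix, rose by 0.81, 0.69 and 0.67, whereas LONP1, HSCB and CLPP fell by 0.44, 0.42 and 0.31. Of 15 other genes linked to the heat shock response, 6 were higher and 5 lower, with a median of 0.16. CRYAB, another small HSP, rose from 2.56 ± 0.16 to 14.3 ± 0.94 CPM (log2 fold change 2.47, SE 0.07, adjusted p = 7.98e-18). UBB, which encodes polyubiquitin, rose from 363.2 ± 13.8 to 744.4 ± 13.2 CPM. HSBP1 rose by 0.36, and ZFAND2A and SERPINH1 fell by 0.76 and 0.64. The heat-response genes went both ways, as did the genes of the group and all genes tested (39.4% higher and 37.7% lower).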

How the data were processed

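The authors deposited raw counts per gene for 8 libraries of SKBR3 RNA, 4 a group, under Ensembl identifiers with a symbol column. RNA was extracted with Trizol and sequenced as paired ends on an Illumina instrument, per the labels' protocols. The submitters' processing notes name FastQC, Salmon 1.9, DESeq2 3.16 and hg38, without role or order. Whether the whole counts are rounded Salmon estimates, the annotation release and the use of strand are not given in the sources used here. Gene positions and exon lengths came from GENCODE 29 on GRCh38, which matched 29358 of 30434 identifiers regardless of version.

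Groups came from the sample labels. Genes were kept by filterByExpr (at least 10 counts, total of 15), which left 16430 and removed 14004. Knockdown was compared with control by edgeR 4.0.16 (R 4.3.3; TMM, robust quasi-likelihood fit, prior count 0.125), with p-values adjusted by Benjamini-Hochberg over the 16430 genes and called under 0.05. CPM is the count per 1000000 of the TMM-scaled total, and SEs come from log2 CPM with 0.5 added to each count. Folds against a group with 3 or fewer counts in every library are bounds; intervals and floors cover counting error only. Single values were also tested by exact permutation over 70 divisions of the libraries. On simulated counts, 69 of 99 genes changed by 0.5 and 83 of 97 changed by 1 on the log2 scale were called with the right sign, and 13 of 165 calls were false. The simulation changed only 196 of 16430 genes, whereas 77.1% were called in the data. Its shares therefore do not give the power or the false calls of the comparison reported here. No pair of libraries was alike within sampling noise.

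Members and lists were chosen with earlier results of these data known. Families of up to 10 tested genes could be named whole. In DNAJC, the 5 most abundant and the 8 with the largest called change and a mean of at least 50 counts were named, and of each partner list the 3 largest rises and falls, except for a gene that is not reported here. Alternatives were DESeq2 1.42.0, limma 3.58.1 voom, other scalings, filters and thresholds, a replicate block, removal of the regional shift, and leaving out each library.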

Additional observations from a re-analysis of the deposited data

Results flagged for a closer look

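In 7 of 146 groups of 4 libraries, 1 library stood far from the other 3 of its group (a gap, as a share of the group's range, above Dixon's critical value); chance alone gives about 7.3, or 1 in 20 groups. DNAJC27 was low in knockdown replicate 4, at 5.88 CPM against 7.66 to 7.94 in the others (gap 0.877 of the range). DNAJC8 was low in knockdown replicate 2, at 69.8 CPM against 75.3 to 75.8 (0.918). HSPH1 was low in control replicate 3, at 214.5 CPM against 245.7 to 249.7 (0.895). HSPA12B was low in knockdown replicate 2, at 2.21 CPM against 2.93 to 2.96 (0.965), and HSPA6 in knockdown replicate 3, at 0.153 CPM against 0.324 to 0.340 (0.943). HSP90AB1 was high in control replicate 2, at 1478 CPM against 1444 to 1446 (0.932). CCT4 was low in knockdown replicate 2, at 413.4 CPM against 434.7 to 438.0 (0.870).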

How the results depend on the processing

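Under the 19 alternatives, 31 to 38 of the heat shock and chaperonin genes were called higher and 21 to 28 lower, and 10279 to 15028 of all genes were called, each within 1.5 times the reported count. Their median log2 fold change of 0.02 lies close to 0 and moved to 0.0433 with DESeq2, 0.108 with library size only, 0.0837 with upper-quartile scaling, 0.0649 with a mean of at least 50 counts, 0.0517 with no filter and 0.0587 with the regional shift removed; leaving out 1 library gave 0.00818 to 0.0388. Scaling by library size moved the median of all genes by 0.08. With the regional shift removed, DNAJA1 turned to 0.32, DNAJB12 to -0.15, DNAJC11 to -0.12, DNAJC21 to -0.18, DNAJC25 to 0.0245, DNAJC7 to 0.28, HSPH1 to 0.16, CCT3 to 0.19 and HSF1 to -0.12; the cause was not tested. DNAJC27 lost its call with DESeq2 (adjusted p = 0.083) and without knockdown replicate 3 (adjusted p = 0.0556 with edgeR). HSF1 gained a call without control replicate 3 (0.12, adjusted p = 0.00745 with edgeR) and without knockdown replicate 3 (0.11, adjusted p = 0.032). It was also called higher with upper-quartile scaling (0.15, adjusted p = 0.00401) and with a mean of at least 50 counts (0.10, adjusted p = 0.0311). With library size only it was called at 0.17, and HSPA8 and HSP90AA1 were called too, at 0.08 and 0.09. Of 1379 single-gene values under alternatives, 1344 kept their call. Of these, 28 changed sign, all for genes called neither in the main fit nor under the alternative. The replicate numbers did not pair the libraries (correlations of same-numbered libraries -0.03 to 0.06), and with the replicate block 32 were higher and 27 lower, with a median of 0.02 and 12453 of all genes called. Depth limits HSPA6, CCT6B, DNAJB5, DNAJB13 and the 6 genes not tested.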
